A study of Homo sapiens with 6 samples.

Results

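ETV1, ETV4 and ETV5 encode the PEA3 group of ETS transcription factors, and DUSP4, DUSP6, SPRY1, SPRY2, SPRY4, SPRED1 and SPRED2 encode inhibitors that ERK signaling induces against itself. These 10 genes, of 23062 identifiers in the tables, are described here in DU145 cells, an androgen-independent human prostate cancer cell line derived from a brain metastasis. They were chosen by gene symbol, at a time when the TAX and control values of the same libraries were already known, the difference in ETV4 among them. Their differences are therefore a description. Where a member is said to be called, this only states its side of the threshold over all genes, which that choice had already settled, and it supports nothing further.

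Control cultures (3 libraries) were kept in medium for 48 h, and TAX cultures (3 libraries) received taraxasterol (TAX), a plant triterpene, at its IC50 for the same time. Both groups were wild-type DU145 cells, and the labels do not say whether the 3 libraries of a group came from separate cultures. The study's methods state in general that experiments were repeated, without naming the sequencing, so p-values measure the spread between these libraries, which may be technical. TAX had been dissolved in DMSO, while the control label names medium alone, so TAX and solvent cannot be told apart. Values were taken as FPKM, a unit the tables do not name, in which fragments are scaled to gene length and to the library total, so levels can be compared between genes. Without read totals the depth is unknown, and no counting interval can be given for any value. Differences are given on the log2(FPKM + 1) scale from a limma fit, which understates the change of a low gene. Of the 10 members, 9 were among the 12359 genes tested, which reached 1 FPKM in 3 or more of the 6 libraries, and ETV1 was not.

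Growth factor receptors such as the FGF receptors pass their signal through RAS, RAF and MEK to the ERK kinases. In many epithelia ERK raises the transcription of the PEA3 factors, partly by relieving repression by Capicua (CIC), and the same signal induces the proteins that damp it. DUSP4 and DUSP6 remove the activating phosphates from ERK, Sprouty proteins act between receptor and RAF, and SPRED proteins bring neurofibromin to RAS. Levels of these transcripts are widely read as a record of ERK output, and ETV1, ETV4 and ETV5 are also known as fusion or overexpressed genes in prostate cancer.

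In control cells the members covered a wide range of levels (FPKM, mean ± SD, n = 3 each). ETV5 at 22.3 ± 2.25 and SPRED2 at 21.9 ± 0.651 stood highest, with overlapping ranges. DUSP6 followed at 13.7 ± 4.13, then SPRY2 at 8.81 ± 1.03 and SPRED1 at 7.67 ± 0.965, the ranges of SPRY2 and SPRED1 also overlapping. ETV4 stood apart from both its neighbours at 4.90 ± 0.377. DUSP4, SPRY1 and SPRY4 lay between 0.915 and 2.33 FPKM in every control library, and their order was within their spread. The control mean of ETV5 lay at percentile 75.4 of the tested genes, that of ETV4 at 30.9 and that of SPRY4 at 5.26. In these cells the PEA3 transcript pool was thus mostly ETV5, which had 4.57 ± 0.653 times the FPKM of ETV4 (SD, n = 3).

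ETV4 was the member with the greatest difference between the groups. This gene, also called PEA3, lies on chromosome 17 from 43527844 to 43579620 on the minus strand (GRCh38, GENCODE 29). Its FPKM was 5.29, 4.53 and 4.87 in the control libraries, given here and below in the order of replicates 1, 2 and 3, and 8.55, 7.91 and 8.27 in the TAX libraries. All TAX libraries lay above all control libraries, by at least 2.62 FPKM, and the mean was 1.68 times that of control. The log2 fold change was 0.65 (standard error 0.082), which ranked 29 from the top among the 12359 genes tested. Without any single library the ratio of means stayed between 1.62 and 1.75. The gene DHX8, which overlaps ETV4 on the opposite strand, had 16.0 ± 1.80 and 16.2 ± 0.447 FPKM (SD, n = 3 each), and the strand setting of the counting is not given in the sources used here.

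ETV5, the most abundant PEA3 factor here, lies on chromosome 3 from 186046308 to 186110318 on the minus strand. ETV5 had 23.0, 24.1 and 19.7 FPKM in the control and 30.4, 27.6 and 29.5 FPKM in the TAX libraries. Again the groups did not overlap, with a ratio of means of 1.31 and a log2 fold change of 0.38 (standard error 0.091). On the same strand DGKG overlaps ETV5 in the annotation, and its level was 2.52 ± 0.297 and 2.78 ± 0.140 FPKM (SD, n = 3 each), with overlapping groups. Because ETV4 differed more than ETV5, the composition of the PEA3 pool also differed. The ratio of ETV5 to ETV4 within a library was 4.36, 5.31 and 4.06 in control and 3.56, 3.49 and 3.57 in TAX libraries, which is lower in every TAX library and free of any scaling between libraries. The FPKM of the PEA3 factors together was 27.2 ± 2.22 in control and 37.4 ± 1.74 in TAX-treated cells (SD, n = 3 each).

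ETV1, on chromosome 7 from 13891228 to 13991425 on the minus strand, was listed at 0 in all 3 control libraries and in TAX replicates 1 and 2, and at 0.00881 FPKM in TAX replicate 3. No fold is given for it, and an exact 0 in such tables can also be a failed estimate.

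**Figure D1:**
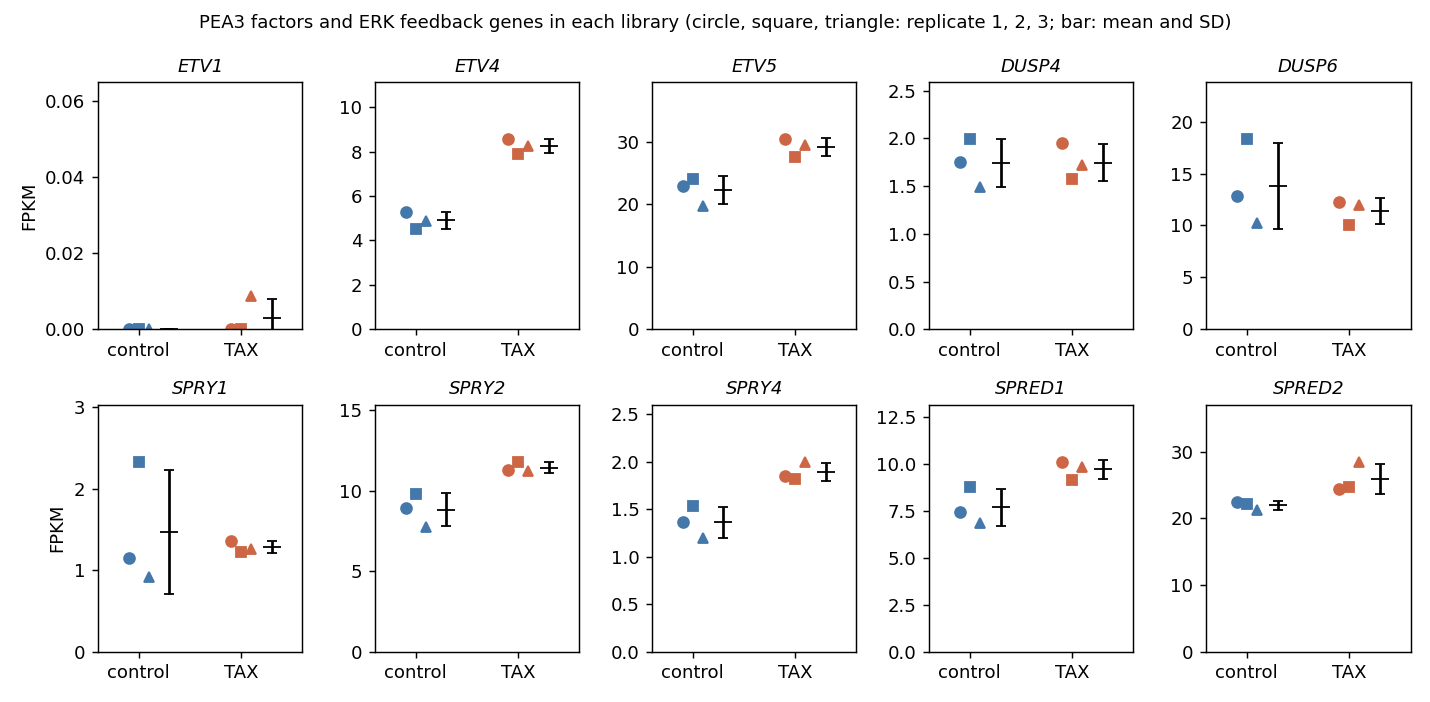
FPKM of the 10 genes in each library, with the control libraries in blue and the TAX libraries in orange, circles, squares and triangles for replicates 1, 2 and 3, and the mean with its SD in black. Each panel has its own axis from 0. The TAX points of ETV4 and ETV5 lie above all control points, while control replicate 2 is the highest point of DUSP6 and SPRY1.

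Among the Sprouty genes, SPRY2 and SPRY4 were higher in TAX-treated cells and SPRY1 overlapped between the groups. SPRY2, on chromosome 13 from 80335976 to 80340951 on the minus strand, had 8.93, 9.78 and 7.73 FPKM in control and 11.3, 11.8 and 11.2 FPKM in TAX libraries. SPRY4, on chromosome 5 from 142310427 to 142326455 on the minus strand, had 1.36, 1.53 and 1.20 FPKM in control and 1.85, 1.82 and 2.00 FPKM in TAX libraries. In both genes every TAX library was above every control library. The ratio of means was 1.29 for SPRY2 and 1.39 for SPRY4, and the log2 fold changes were 0.34 (standard error 0.091) and 0.29 (standard error 0.084). The ratio of SPRY2 to SPRY4 overlapped between the groups, at 6.46 ± 0.0917 in control and 6.04 ± 0.442 in TAX-treated cells (SD, n = 3 each).

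SPRY1, on chromosome 4 from 123396795 to 123403760 on the plus strand, had 1.15, 2.33 and 0.915 FPKM in control and 1.36, 1.22 and 1.26 FPKM in TAX libraries. The TAX libraries lay inside the control range, which control replicate 2 had widened. The ratio of means was 0.874 with all libraries and 1.24 without control replicate 2, so that its direction rests on that library. The log2 fold change of SPRY1 was -0.07 (standard error 0.168). The ratio of SPRY2 to SPRY1 within a library overlapped as well, at 7.73, 4.20 and 8.45 in control and 8.30, 9.64 and 8.84 in TAX libraries.

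The 250 bases before an annotated start of SPRY2 and of SPRY1 are shown as examples of the Sprouty genes, and those of ETV1 because its window was the only one with a CIC octamer. The windows come from RefSeq (GRCh38.p14), where 7 of the 10 members matched with 16 windows, and the 3 shown hold no annotated exon of GENCODE 29; for SPRY2 the one farthest upstream is shown. ETV4, ETV5 and DUSP4 had no entry. Capitals mark the ETS core GGAA, or TTCC where it lies on the other strand, and in ETV1 also the octamer TGAATGGA. SPRY2 is chr13:80341127-80341376 on the minus strand, SPRY1 is chr4:123396545-123396794 on the plus strand and ETV1 is chr7:13991426-13991675 on the minus strand.
SPRY2: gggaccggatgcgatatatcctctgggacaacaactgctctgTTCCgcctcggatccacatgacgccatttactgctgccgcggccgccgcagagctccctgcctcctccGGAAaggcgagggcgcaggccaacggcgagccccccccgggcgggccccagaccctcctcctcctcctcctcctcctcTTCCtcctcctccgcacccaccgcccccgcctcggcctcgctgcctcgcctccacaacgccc
SPRY1: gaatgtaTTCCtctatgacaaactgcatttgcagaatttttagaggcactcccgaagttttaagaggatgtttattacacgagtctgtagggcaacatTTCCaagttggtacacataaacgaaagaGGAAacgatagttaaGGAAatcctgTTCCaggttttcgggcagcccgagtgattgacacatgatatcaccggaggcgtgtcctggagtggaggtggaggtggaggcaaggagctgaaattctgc
ETV1: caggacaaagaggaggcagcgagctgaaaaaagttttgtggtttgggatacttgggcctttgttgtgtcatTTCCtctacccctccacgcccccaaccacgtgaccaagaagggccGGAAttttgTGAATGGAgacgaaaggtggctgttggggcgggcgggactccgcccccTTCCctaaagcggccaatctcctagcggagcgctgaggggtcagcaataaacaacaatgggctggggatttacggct

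The SPRY2 window had 3 copies of the core and the SPRY1 window had 5, counted on both strands, while the windows at their other annotated starts each held 4. Such cores are common, since 92.7% of all 35116 windows held at least 1, and 55.1% and 18.6% held at least 3 and at least 5. Both strands were searched for the octamers TGAATGAA and TGAATGGA, known to be bound by CIC, which occurred in 1.40% and 0.832% of all windows. Of the 16 windows of members, 0 held the first and 1, that of ETV1, held the second, starting 125 bases before the start site. The longer ETS motif CCGGAAGT, which contains the core, was found in 3.42% of all windows and in 0 of the 16. These matches say only which letters the windows hold.

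SPRED1 and SPRED2 were both higher in TAX-treated cells. SPRED1, on chromosome 15 from 38252326 to 38357249 on the plus strand, had 7.41, 8.74 and 6.86 FPKM in control and 10.1, 9.13 and 9.84 FPKM in TAX libraries. SPRED2, on chromosome 2 from 65310851 to 65432637 on the minus strand, had 22.5, 22.1 and 21.2 FPKM in control and 24.4, 24.7 and 28.5 FPKM in TAX libraries. The groups were separate for both genes, narrowly so for SPRED1, where the gap was 0.392 FPKM. The ratios of means were 1.26 and 1.18, and the log2 fold changes were 0.31 (standard error 0.095) and 0.23 (standard error 0.085). SPRED2 was the steadiest member in control cells, with a coefficient of variation of 2.97%, and TAX replicate 3 was the highest of its TAX libraries.

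The phosphatases DUSP4 and DUSP6 overlapped between the groups. DUSP6, which acts on ERK in the cytoplasm, lies on chromosome 12 from 89347232 to 89353271 on the minus strand. DUSP6 had 12.8, 18.3 and 10.2 FPKM in control and 12.3, 10.0 and 12.0 FPKM in TAX libraries, with control replicate 2 well above the other libraries. Its ratio of means was 0.832 with all libraries and 0.996 without control replicate 2, and its log2 fold change was -0.21 (standard error 0.167), or -0.395 without control replicate 3 and -0.129 without TAX replicate 2. DUSP4, a nuclear phosphatase of ERK encoded on chromosome 8 from 29333064 to 29350668 on the minus strand, had 1.75, 1.99 and 1.49 FPKM in control and 1.95, 1.57 and 1.72 FPKM in TAX libraries. The means of DUSP4 were 1.74 ± 0.251 and 1.74 ± 0.195 (SD, n = 3 each), a log2 fold change of 0.00 (standard error 0.096).

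The ratio of DUSP6 to ETV5 within a library was lower after TAX treatment, where ETV5 itself was higher in every library. The mean ratio of DUSP6 alone was 0.996 without control replicate 2, so this ratio does not show a lower DUSP6. Its values were 0.555, 0.759 and 0.515 in control and 0.403, 0.363 and 0.407 in TAX libraries, without overlap. The ratio of SPRY4 to ETV5 overlapped, at 0.0612 ± 0.00228 in control and 0.0649 ± 0.00371 in TAX-treated cells (SD, n = 3 each). SPRY2 had 0.698, 0.536 and 0.760 times the FPKM of DUSP6 in control and 0.923, 1.17 and 0.928 times in TAX libraries. These groups were separate, and SPRY2 itself was higher in every TAX library. How often ratios of other gene pairs were separate was not tested.

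**Figure D2:**
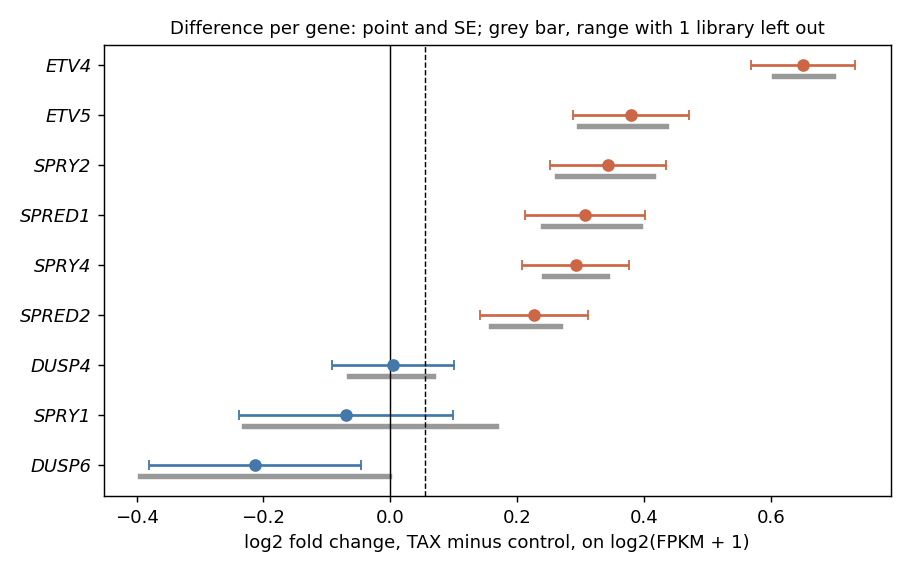
Log2 fold change (TAX minus control, log2(FPKM + 1) scale) of the 9 tested genes with the standard error from limma. Grey bars give the range when each library is left out in turn, the dashed line is the median of all tested genes (0.054), and orange marks genes whose groups do not overlap. ETV4 stands apart at 0.65, 5 genes lie between 0.23 and 0.38, and DUSP4, SPRY1 and DUSP6 lie near or below 0.

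Among the 9 tested members, 6 had all TAX libraries above all control libraries and 0 had them below. Of all tested genes 14.6% were separate in the first way and 3.34% in the second, and nothing is read from the members' share because they were chosen with these values known. The median log2 fold change of the members was 0.29, beside 0.054 for all tested genes. At an adjusted p under 0.05 (limma, Benjamini-Hochberg over all tested genes) ETV4 was the 1 member called, where 0.316% of all tested genes, or 39, were called higher and 0.162%, or 20, lower. Without a filter on low values ETV4 was not called (limma, adjusted p = 0.0977), at the same log2 fold change of 0.65. With each library centred on its median, which evens out the lower values of control replicate 3, the counts over all genes were 46 higher and 50 lower. The same 6 members were separate after this centring, but the share of all tested genes on that scale was not computed, so nothing is read from it. SPRY1 was the only tested member below 1 FPKM in a library, in control replicate 3.

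Control replicate 2 had the highest control value in 7 of the 9 members, the exceptions being ETV4 and SPRED2, while it was highest in 44.6% of all tested genes. After centring of the libraries these figures were 7 of 9 and 27.8%. Control replicate 3 was the lowest control in 8 of 9 members and in 72.3% of tested genes, or in 4 of 9 and 30.7% after centring. The genes of the early response to ERK that are named here for their height in control replicate 2, after their values were seen, are FOS, EGR1 and DUSP1. FOS had 3.80, 13.7 and 2.61 FPKM in control and 2.62, 1.49 and 2.48 FPKM in TAX libraries. DUSP1, another MAP kinase phosphatase, had 15.0, 32.2 and 14.3 FPKM in control and 23.1, 18.5 and 19.3 FPKM in TAX libraries. Among the controls, DUSP6 and SPRY1 were highest in replicate 2, as were FOS, EGR1 and DUSP1, which were named for that height. The log2 fold changes of DUSP6, SPRY1, FOS and DUSP1 depended on this library. That of EGR1 went from -0.87 to -0.64 without it, and every TAX library stayed below the remaining controls. Without control replicate 2 the log2 fold change went from -0.21 to -0.002 for DUSP6, from -0.07 to 0.17 for SPRY1 and from 0.08 to 0.44 for DUSP1.

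With the group means removed, log2 levels of ETV5, DUSP4, DUSP6, SPRY1, SPRY2, SPRY4 and SPRED1 varied together over the 6 libraries. Pearson's r of their 21 pairs was 0.68 to 0.99, the highest being DUSP6 with SPRED1. Centring of each library, which removes a shared scale, widened this range to 0.10 to 0.92. The 8 pairs of ETV4 with the other members had r from -0.58 to 0.10, and from -0.96 to 0.37 after centring. SPRED2 had r from 0.067 to 0.592 with the 7 genes, and from -0.55 to 0.625 after centring. These values are a description of 6 libraries that all pairs share, and the group of 7 was named after the values were seen.

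**Figure D3:**
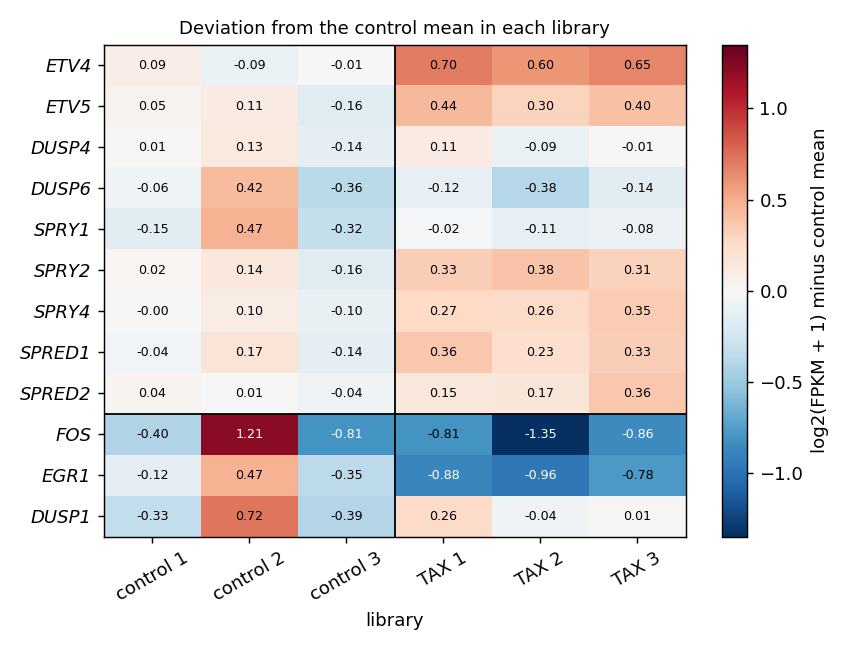
Log2(FPKM + 1) of each gene in each library minus its control mean, for the 9 tested members (above the line) and for FOS, EGR1 and DUSP1 (below it), with red for higher and blue for lower. ETV4 is at 0.60 to 0.70 in the TAX libraries, and control replicate 2 is red for DUSP6, SPRY1, FOS, EGR1 and DUSP1.

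Across the 6 libraries, the tested genes whose log2 levels were most like those of ETV4 were TFCP2L1 (Pearson's r = 0.990), PALD1 (0.989) and COA7 (0.989). Those most like ETV5 were VPS33A (0.9995), LAMB3 (0.998) and ARHGAP19 (0.998). DUSP6 was most like PER1, TBC1D3L and HBP1, with r from 0.995 to 0.998, and SPRY4 was most like GFM1, DCBLD2 and SHLD2, with r from 0.993 to 0.994. TBC1D3L belongs to a family of near-identical copies, so its own value is uncertain. LAMB3, a laminin chain, had a log2 fold change of 0.63, while VPS33A had 0.08, since r follows the shape of a pattern and not its size. These values of r are the highest of 12359 genes over only 6 libraries and are given as a description.

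Around the members, 9 lists with 133 other genes of the FGF and ERK pathway were read from the same fit, and 90 of these genes were tested. By limma 4 of them had an adjusted p under 0.05 with higher values in TAX-treated cells and 0 with lower values. At an unadjusted p under 0.05 there were 16 higher and 6 lower genes of the 90, where 7.73% of all tested genes were higher and 2.41% lower by that rule, and the median log2 fold change of the 90 genes was 0.08. The upstream lists held none of the 4 genes. Of the FGF ligands 3 of 18 were tested, FGF2, FGF11 and FGF12, with log2 fold changes from -0.10 to 0.08, that of FGF11 running from -0.198 (without control replicate 3) to -0.004 (without TAX replicate 2), and 0 genes at an unadjusted p under 0.05 (limma). The receptor FGFR1 stood at 14.1 ± 1.73 FPKM without and 15.1 ± 0.538 FPKM with TAX, and its relative FGFR4 at 6.79 ± 0.575 and 6.75 ± 0.327 FPKM (SD, n = 3 for both), with overlapping groups. FGFR2 and FGFR3 lay between 0.143 and 0.620 FPKM in every library and were not tested. Of the 16 tested receptors and adaptors 0 passed by limma and 1 had an unadjusted p under 0.05. That gene was the adaptor GAB1, with a log2 fold change of -0.24, followed by the adaptor GRB2 with 0.16 and the phospholipase PLCG1 with 0.15. Without control replicate 3 the value of GRB2 was 0.087.

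All 19 listed genes of the cascade from RAS to ERK passed the filter on low values. Of these 16 were above and 3 below a log2 fold change of 0. Most tested genes were above 0 as well, since DUSP4 at 0.004 ranked 8410 from the top of 12359. By limma 0 passed and 3 had an unadjusted p under 0.05, all higher, beside 7.73% of all tested genes. The 3 genes were HRAS (0.28, standard error 0.081), MAP2K1, which encodes MEK1 (0.29, standard error 0.103), and NRAS (0.18, standard error 0.076). Each had every TAX library above every control library, as had 14.6% of all tested genes. The list median of 0.09 lay close to the 0.054 of all genes.

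Other brakes on the pathway were mixed. Of 6 tested further DUSP genes 0 passed by limma and 1 had an unadjusted p under 0.05, DUSP5, which encodes a nuclear ERK phosphatase. DUSP5 had 29.7, 44.9 and 26.0 FPKM in control and 49.3, 42.7 and 49.2 FPKM in TAX libraries, so that only control replicate 2 reached the TAX range. Without that library DUSP5 had a log2 fold change of 0.74 (adjusted p = 0.0264 from limma), beside 0.51 with all libraries (adjusted p = 0.335), and over its 13 alternatives the adjusted p ran from 0.0264 to 0.646. DUSP10 had a log2 fold change of 0.24, which was 0.38 without control replicate 2 and 0.16 without control replicate 3. DUSP7 had 0.21, which was 0.085 without TAX replicate 2 and 0.14 without control replicate 2. Among 8 other tested inhibitors 0 passed by limma and 3 had an unadjusted p under 0.05, SPRED3 with a log2 fold change of 0.22, the receptor phosphatase PTPRJ with -0.38 and the RAS GTPase activator DAB2IP with -0.33. Without control replicate 2 the value was 0.14 for SPRED3 and -0.15 for DAB2IP. SPRED3, the remaining SPRED gene, was at 3.36 ± 0.456 FPKM without and 4.04 ± 0.124 FPKM with TAX (SD, n = 3 for both), with every TAX library above every control library, as in SPRED1 and SPRED2.

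Genes known to be induced through ERK showed both directions. Of 13 tested, 2 rose by limma and 0 fell, with 6 higher and 2 lower at an unadjusted p under 0.05, and the list median was 0.18. PHLDA1 rose from 34.3 ± 3.35 to 51.1 ± 0.839 FPKM (SD, n = 3 each), a log2 fold change of 0.57 with an adjusted p = 0.0275 by limma. HMGA2, a chromatin protein, rose from 2.84 ± 0.120 to 4.48 ± 0.255 FPKM (SD, n = 3 each), a log2 fold change of 0.51 with an adjusted p = 0.0275 by limma. For PHLDA1 the adjusted p ran from 0.0140 to 0.122 and for HMGA2 from 0.0219 to 0.127 over 13 alternatives. The call of PHLDA1 was lost without each library except control replicate 2, and that of HMGA2 whichever library was left out. CCND1, which encodes cyclin D1, had 34.9 ± 0.933 and 45.7 ± 1.24 FPKM (SD, n = 3 each), higher in 3 of 3 TAX libraries but not called (limma, adjusted p = 0.0731).

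EGR1, the immediate early gene named here after its values were seen, went the other way from PHLDA1 and ETV4. EGR1 had 33.2, 50.5 and 28.0 FPKM in control and 19.1, 18.1 and 20.7 FPKM in TAX libraries. All TAX libraries lay below all control libraries, with a log2 fold change of -0.87 (adjusted p = 0.0731 from limma). Without control replicate 2 the log2 fold change was -0.64 (limma, adjusted p = 0.0406). With all libraries EGR1 was also called lower after centring (limma, adjusted p = 0.0444) and after quantile normalization (limma, adjusted p = 0.0432). Over 13 alternatives the adjusted p ran from 0.0406 to 0.328. FOS had a log2 fold change of -1.01 with overlapping groups, and -0.40 without control replicate 2.

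No regulator of the PEA3 factors was called. CIC, the repressor named above, had 12.0 ± 1.44 FPKM without and 12.2 ± 0.362 FPKM with TAX (SD, n = 3 for both), a log2 fold change of 0.03. All 9 listed regulators were tested, 0 had an adjusted and 0 an unadjusted p under 0.05 (limma), and the list median was 0.03. DDB1, USP9X and DET1, with the smallest p of this list, had log2 fold changes of 0.15, 0.09 and -0.11. With each library left out in turn, that of DET1 ran from -0.26 (without control replicate 3) to -0.013 (without control replicate 1). Without control replicate 3 those of DDB1 and USP9X were 0.054 and 0.043, and USP9X had 0.147 without control replicate 2.

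Of the other ETS factors 12 of 23 were tested and 1 rose by limma. ELK3 rose from 18.1 ± 1.24 to 25.2 ± 0.261 FPKM (SD, n = 3 each), a log2 fold change of 0.46 with an adjusted p = 0.0378 by limma. Over 13 alternatives this p ran from 0.0205 to 0.163, and it was above 0.05 without each library except control replicate 2. ETS1 had 26.3 ± 2.54 and 37.7 ± 3.46 FPKM without overlap (SD, n = 3 each), and was not called (limma, adjusted p = 0.0731), except after centring. The epithelial factor ELF3 had 28.9 ± 7.50 and 18.8 ± 1.33 FPKM, lower in every TAX library (SD, n = 3 each) and likewise not called (limma, adjusted p = 0.214). Of the 12 other ETS genes 7 were above and 5 below a log2 fold change of 0, and their median was 0.01.

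Of 13 genes known as targets of PEA3 factors, 4 were tested and 9 were too low. MMP14, a membrane-bound matrix metalloproteinase, rose from 50.8 ± 7.37 to 78.0 ± 4.06 FPKM (SD, n = 3 each), a log2 fold change of 0.62 with an adjusted p = 0.0397 by limma. Its adjusted p ran from 0.0258 to 0.209 over 13 alternatives and was above 0.05 without each library except control replicate 1. VIM, the gene of vimentin, had a log2 fold change of 0.26 and CXCR4, a chemokine receptor, of -0.51 (standard error 0.282), with 5.02 FPKM of CXCR4 in control replicate 2 and at most 2.22 FPKM in the other libraries. Without control replicate 2 the log2 fold change of CXCR4 was -0.12, and without control replicate 3 that of VIM was 0.16. MMP1, MMP3, MMP9 and MMP13 stayed at or below 0.330 FPKM, and MMP2 and MMP7 were listed at 0 in all 6 libraries.

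**Figure D4:**
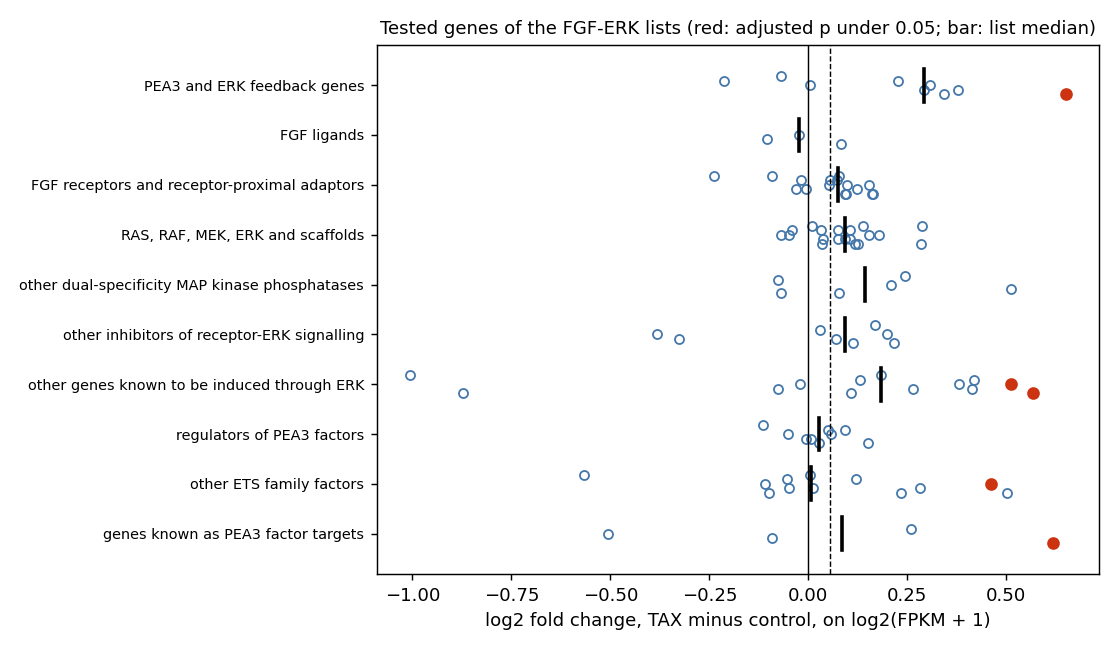
Log2 fold change (TAX minus control, log2(FPKM + 1) scale) of each tested gene in the members' list and the 9 lists around it, 1 row per list. Red points had an adjusted p under 0.05 by limma, black bars are list medians, and the dashed line is the median of all tested genes. The medians of the other lists run from -0.02 to 0.18, and the red points are ETV4, PHLDA1, HMGA2, ELK3 and MMP14.

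The labelled cell type was checked against marker genes. The 6 epithelial markers lay between 14.5 and 173 FPKM in every library, and their sum was 443 to 562 FPKM in control and 570 to 621 FPKM in TAX libraries. Of these markers 4 had a log2 fold change above 0 and 2 below, CDH1 with -0.16 and CLDN4 with -0.10. The prostate luminal genes KLK3, KLK2 and FOLH1 were listed at 0 in all 6 libraries. Markers of leukocytes, endothelium and fibroblasts summed to 2.26 to 2.55 FPKM in control and 1.72 to 1.99 FPKM in TAX libraries, 8 of these 9 genes lying below 1 FPKM everywhere. COL1A1 made up most of that sum, and the part of these marker differences in the values above was not tested. In bulk RNA a change in RNA per cell and a change in the share of cells cannot be told apart.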

How the data were processed

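RNA of 6 DU145 libraries (3 control, 3 TAX) was sequenced by a company, Tsingke Biotechnology. The authors deposited 1 table per library, replicates not pooled. The deposited values were taken as FPKM, a unit their headers do not name, since they are not whole numbers and add up to 322483 to 363724 per library. Per the labels, the submitters' processing notes name HISAT2 2.2.0, StringTie 2.1.2 and GRCh38, without roles. Annotation, filters and strand setting are not given in the sources used here. Steps worth 1 read were looked for in log2 ratios of values below 0.03 FPKM, in bins 0.1 wide and without a set threshold. The fullest bin held 12.4% of the ratios between control replicate 1 and TAX replicate 3. In the other pairs of libraries it held 4.75% to 8.25%, and whether any bin marks such a step was not tested.

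From the FPKM values, log2(FPKM + 1) of 12359 genes reaching 1 FPKM in 3 or more libraries was fitted with limma 3.58.1 in R 4.3.3 (trend, no covariate), with Benjamini-Hochberg adjustment over all tested genes. The fit was tested on simulated data. Members, lists and tests were chosen with earlier results of these data known. Named outside the members were, per list, genes with an adjusted p under 0.05 and those with the smallest p up to 3. EGR1, FOS, DUSP1, FGFR1 to FGFR4, CIC, DHX8, DGKG, the matrix metalloproteinases other than MMP14 and the marker genes were named beside this rule. Genes most like 4 members were named by Pearson's r. Alternatives were pseudocount 0.1, a filter at 0.1 FPKM, no filter, quantile normalization, centring, no trend, a replicate block, 1.5-fold with unadjusted p, and each library left out. Positions are from GENCODE 29. Some genes of the lists are not reported here.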

Additional observations from a re-analysis of the deposited data

How the results depend on the processing

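As a description of members chosen with these values known, the log2 fold change of ETV4 ran from 0.59 to 0.74 over 13 alternative fits, and ETV5, SPRY2, SPRY4, SPRED1 and SPRED2 had values above 0 in all 13. Counts of members below are given on the same terms and are no sign of stability. Without a filter on low values, over 20280 genes, 0 members, 0 genes of the other lists, 0 higher and 1 lower gene were called (1854 genes at an unadjusted p under 0.05). With the filter at 0.1 FPKM the counts were 25 higher and 12 lower genes and 2 genes of the other lists. Lower genes numbered 48 after quantile normalization and 50 after centring. In these fits 5 and 6 genes of the other lists were called, with EGR1 lower among them in both. With each library left out in turn, 9 to 28 genes were called higher, 8 to 15 lower, 1 member each time and 0 to 4 genes of the other lists. The rule of 1.5-fold with an unadjusted p under 0.05 gave 28 higher and 26 lower genes, and 1 member. Deviations from the group means of same-numbered libraries correlated at -0.12, -0.33 and -0.17, and no library was most like its own number. The deviations of the 3 libraries of a group sum to 0, so these values cannot exclude a preparation shared by number. With a replicate block 13 genes were called higher and 13 lower, 1 member and 0 genes of the other lists. The difference in DUSP4 changed sign after centring (-0.054) and quantile normalization (-0.001), and over the fits without a library it ran from -0.065 to 0.068. Those of SPRY1, FGF12 and DUSP1 changed sign only among fits without a library, which ran from -0.231 to 0.167, from -0.072 to 0.059 and from -0.119 to 0.437. The causes were not tested. Read depth is unknown, so the precision of low genes such as SPRY1, SPRY4 and DUSP4 rests on replicate spread alone.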
